A study of Mus musculus with 23 samples.

Results

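9 genes that modify, cleave or relay Notch signals were followed in the transcriptomes of PyMT tumors with and without IL-38. They are the fringe enzymes Lfng, Mfng and Rfng, the proteases Adam10 and Adam17, the DNA-binding factor Rbpj, the coactivators Maml1 and Maml2, and the Notch inhibitor Numb. The genes were chosen by name from the pathway, and all 9 of them were found among the 47643 gene identifiers of both deposited tables. In every comparison all 9 reached the mean of 5 normalized counts (reads divided by a size factor for each library) that was asked of a gene before it was tested.

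Whole tumors of female PyMT mice, which carry the polyoma virus middle T oncoprotein and develop mammary carcinomas, were dissociated and sequenced by QuantSeq, a method that reads transcripts near their 3′ end. Of 23 libraries, 5 came from mice given an IgG1 isotype control and 6 from mice given the neutralizing antibody anti-IL-38. These mice were wild type for IL-38, and each was treated for 5 weeks from when the first tumor reached a set size. A further 4 came from WT mice given hamster IgG, 4 from IL-38 KO mice given the same IgG, and 4 from IL-38 KO mice given anti-γδTCR. These were again treated for 5 weeks, starting at a set age, and WT below names the group given hamster IgG. The paper describes anti-γδTCR as blocking signaling of the γδ T-cell receptor rather than depleting the cells. It also reports fewer γδ T cells in the tumors with this antibody, and largely unchanged levels in spleen and blood. All groups carried the PyMT transgene on a C57BL/6 background, and the KO was germline, so it was present in every cell and throughout life. The isotype antibodies and the start of treatment differed between the experiments. Il1f10, which encodes IL-38, had 0 reads in all libraries, so the genotype labels could not be checked on it. Summed luminal epithelial markers (10 genes) reached 1734 to 4449 CPM (a gene's reads relative to all reads counted on genes in the library), and none of the 10 was at 0 in all libraries.

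5 libraries stood apart from the other 18. They were the 4 tumors with anti-γδTCR and replicate 4 of the IL-38 KO + IgG group, which the column headers number consecutively. Processed pseudogenes held 1.31% to 1.98% of their reads against 0.0943% to 0.191% in the other 18, and the transcript Gm42418 held 11.3% to 20.1% against 2.62% to 5.70%. They held 6273049 to 8794202 reads on genes, and the others 10138353 to 15879164. CPM is relative to all reads on genes, Gm42418 included, so its larger share lowers the CPM of other genes in the 5 libraries. Mean Rbpj, for example, was 39.6 CPM with anti-γδTCR and 44.9 CPM in IL-38 KO + IgG tumors, but 410 normalized counts in both groups. Levels and orders of groups in CPM carry this limit. Summed neutrophil markers (8 genes) were at 15.8 to 45.6 CPM in these 5 libraries and 237 to 651 CPM in the others, summed dendritic cell markers (9 genes) at 50.4 to 76.0 against 214 to 527 CPM, and summed macrophage markers (9 genes) at 694 to 1116 against 1657 to 3339 CPM. Such sums follow their most abundant genes. With anti-γδTCR against IgG without that replicate 4, the median log2 fold change of single markers was -0.92 (neutrophil), -1.25 (macrophage) and -0.04 (dendritic cell). No marker of these lists was at 0 in all libraries. Because 4 of the 5 make up the whole anti-γδTCR group, that treatment and whatever sets these libraries apart cannot be told apart, and the values of results that turn on replicate 4 of the IL-38 KO + IgG group are also given without it.

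Notch receptors are transmembrane proteins that are cut after they bind a ligand on a neighboring cell. Fringe proteins add N-acetylglucosamine to O-fucose on the receptor's extracellular repeats and so shift which ligands it answers to. Adam10 makes the ligand-dependent cut outside the membrane, with Adam17 able to make a similar cut, after which γ-secretase frees the intracellular domain. That domain joins Rbpj and a Mastermind-like protein (Maml1 or Maml2) on DNA to switch on targets such as the Hes and Hey genes, and Numb, which is shared out unequally when some progenitor cells divide, promotes removal of the receptor. In the mammary gland the pathway is known for its part in luminal cell fate. Whole tumors were measured, so fewer cells of a type and less RNA per cell cannot be told apart.

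Start regions are shown for Lfng and Numb, which differed together between libraries, and for Rbpj, the factor whose core motif was searched. Windows of 300 bases, from 250 bases before to 50 bases after a RefSeq transcript start on GRCm38.p6, were at hand for Lfng, Rfng, Rbpj, Maml1, Maml2, Adam10, Adam17 and Numb, 12 windows of 8 genes. Capitals mark the Rbpj core TGGGAA or its reverse complement TTCCCA, which do not overlap each other in these windows.
Lfng, chr5:140607091-140607390, plus strand: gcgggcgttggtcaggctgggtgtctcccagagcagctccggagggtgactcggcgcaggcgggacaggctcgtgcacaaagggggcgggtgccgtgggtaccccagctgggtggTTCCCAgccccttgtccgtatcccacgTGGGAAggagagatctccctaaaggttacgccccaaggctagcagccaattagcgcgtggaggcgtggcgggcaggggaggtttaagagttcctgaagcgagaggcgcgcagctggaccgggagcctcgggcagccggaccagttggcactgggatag
Rbpj, chr5:53590096-53590395, plus strand: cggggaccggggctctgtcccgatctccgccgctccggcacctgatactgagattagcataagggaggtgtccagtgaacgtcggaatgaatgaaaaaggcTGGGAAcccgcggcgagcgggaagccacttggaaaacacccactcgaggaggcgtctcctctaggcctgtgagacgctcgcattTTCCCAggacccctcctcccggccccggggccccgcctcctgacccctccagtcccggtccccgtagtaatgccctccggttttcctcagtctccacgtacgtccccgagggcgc
Numb, chr12:83921885-83922184, minus strand: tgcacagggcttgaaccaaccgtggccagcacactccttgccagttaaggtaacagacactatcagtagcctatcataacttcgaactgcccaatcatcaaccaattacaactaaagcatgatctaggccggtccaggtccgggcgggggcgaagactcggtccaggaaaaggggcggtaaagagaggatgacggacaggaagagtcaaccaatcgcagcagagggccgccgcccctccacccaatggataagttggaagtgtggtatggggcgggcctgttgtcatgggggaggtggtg
The core stood in 4 of the 12 windows, those of Lfng (1), Rbpj (2, which overlap each other) and Maml2 (1), and in 25.6% of all 32851 windows of the same length. In Lfng it began at bases -135 and -108 from the transcript start, once on each strand. None of the 3 windows of Numb held it. A match describes letters and not binding.

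Fringe genes came first. Lfng (ENSMUSG00000029570, chromosome 5, 140607320 to 140615545, plus strand of GRCm38, protein coding) encodes the lunatic fringe enzyme. Its level was 17.5, 15.7, 12.2, 25.6 and 22.8 CPM in the 5 isotype control tumors, and 13.5 (lowest), 15.7 (median) and 17.8 CPM (highest) in the 6 anti-IL-38 tumors. WT tumors were at 16.5, 13.4, 20.9 and 14.4 CPM. IL-38 KO tumors were at 10.8, 17.98, 14.7 and 42.9 CPM, so that replicate 4 was above every other tumor of the IgG and anti-IL-38 groups. With anti-γδTCR the level was 41.6, 41.3, 58.7 and 44.9 CPM, a range that holds KO replicate 4 and no other library. In order of mean level the groups were anti-γδTCR (46.6 ± 8.19 CPM, SD, n = 4), IL-38 KO + IgG (21.6 ± 14.5), isotype control (18.7 ± 5.44), WT (16.3 ± 3.32) and anti-IL-38 (15.7 ± 1.67), and every neighboring pair in this order overlapped.

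**Figure D1:**
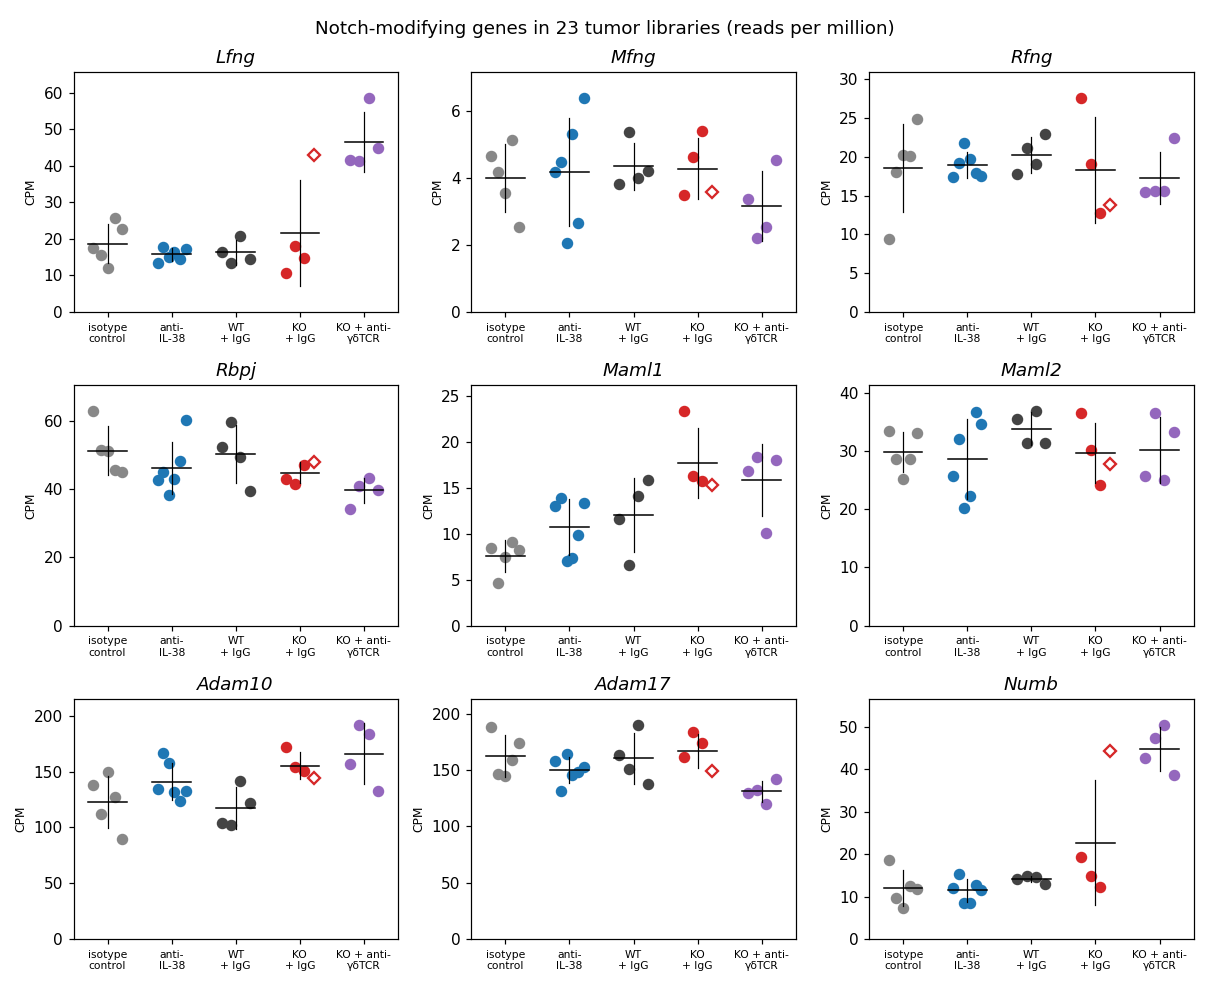
Level of the 9 genes in each tumor library, in CPM on a linear axis from 0, by group, with a line at the mean and a bar of 1 SD; the open diamond is replicate 4 of the IL-38 KO + IgG group. Lfng and Numb reach 41.3 to 58.7 and 38.5 to 50.5 CPM in the anti-γδTCR tumors, where the diamond also lies at 42.9 and 44.3 CPM, while in the other 7 genes it lies among the other tumors.

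Mfng (ENSMUSG00000018169, chromosome 15, 78755882 to 78773475, minus strand), the manic fringe gene, was the member with the fewest reads, 16 to 86 per library. It was at 2.53 to 5.16 CPM in isotype control tumors and at 2.06 to 6.41 CPM with anti-IL-38. WT tumors had 3.83 to 5.38 CPM, IL-38 KO tumors 3.49 to 5.42 CPM and anti-γδTCR tumors 2.22 to 4.55 CPM, and all ranges overlapped. Rfng (ENSMUSG00000025158, chromosome 11, 120780746 to 120784207, minus strand), the radical fringe gene, lay between 9.48 and 27.7 CPM, with both extremes in control-antibody tumors: isotype control replicate 1 was lowest and IL-38 KO replicate 1 highest. Its group means ran from 20.3 ± 2.30 CPM in WT to 17.3 ± 3.41 CPM in anti-γδTCR tumors, and neighboring groups overlapped.

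As a share of the reads of the 3 fringe genes, Lfng made up 40.4% ± 1.88 (SD, n = 6) with anti-IL-38, 45.2% ± 8.27 (n = 5) with isotype control, 39.7% ± 6.80 (n = 4) in WT and 46.2% ± 18.7 (n = 4) in IL-38 KO tumors. It made up 69.4% ± 5.67 (n = 4) with anti-γδTCR. Shares are of 3′ reads and take no account of transcript length. In the 5 libraries that stood apart the share was 62.5% to 76.3%, and in the other 18 it was 25.7% to 55.3%, so that KO replicate 4, at 71.2% (95% Wilson interval 67.1% to 74.9%, counting error only), lay with the anti-γδTCR tumors.

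The proteases had 749 to 2757 reads per library. Adam10 (ENSMUSG00000054693, chromosome 9, 70678997 to 70780229, plus strand) was at 138, 112, 149, 127 and 89.8 CPM in isotype control tumors. With anti-IL-38 it was at 124 (lowest), 134 (median) and 167 CPM (highest). In WT tumors it was at 104, 103, 142 and 122 CPM, and in IL-38 KO tumors at 172, 154, 151 and 144 CPM, so that every KO tumor lay above every WT tumor. Anti-γδTCR tumors were at 157, 192, 183 and 132 CPM and overlapped with the KO tumors. The order of mean levels was anti-γδTCR (166 ± 27.1 CPM), IL-38 KO (155 ± 12.1), anti-IL-38 (141 ± 16.9), isotype control (123 ± 23.3) and WT (117 ± 18.4), with each neighbor overlapping the next.

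Adam17 (ENSMUSG00000052593, chromosome 12, 21323509 to 21373632, minus strand), also the protease that sheds tumor necrosis factor, was at 145 to 188 CPM with isotype control, 131 to 164 CPM with anti-IL-38, 137 to 190 CPM in WT and 149 to 184 CPM in IL-38 KO tumors. With anti-γδTCR it was at 129, 132, 119 and 142 CPM, below all 4 IL-38 KO tumors with IgG. Its 3′ end meets that of Iah1 on the opposite strand. Iah1 was at 7.49 to 12.1 CPM (60 to 106 reads) in the 5 libraries apart against 17.3 to 42.3 CPM (218 to 544 reads) in the others. Whether reads were counted by strand is not given in the sources used here, so the reads of this pair are uncertain.

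The nuclear factors follow. Rbpj (ENSMUSG00000039191, chromosome 5, 53466152 to 53657362, plus strand) was at 62.9, 51.4, 51.2, 45.7 and 45.0 CPM with isotype control, and at 38.3 (lowest), 44.1 (median) and 60.4 CPM (highest) with anti-IL-38. WT tumors had 52.3, 59.8, 49.5 and 39.4 CPM, IL-38 KO tumors 43.0, 41.4, 47.0 and 47.9 CPM, and anti-γδTCR tumors 34.3, 40.9, 43.4 and 39.9 CPM. Groups next to each other in order of mean level overlapped. The processed pseudogene Rbpj-ps3 took 13.6% to 23.2% of the reads of Rbpj and Rbpj-ps3 together in the 5 libraries that stood apart and 0.134% to 2.17% in the other 18, so that the level of Rbpj in the 5 is uncertain by that much.

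Maml1 (ENSMUSG00000050567, chromosome 11, 50255634 to 50292311, minus strand) was at 8.47, 4.62, 7.51, 9.12 and 8.26 CPM with isotype control and at 7.05 (lowest), 11.4 (median) and 13.9 CPM (highest) with anti-IL-38. WT tumors were at 11.6, 6.63, 14.1 and 15.9 CPM. IL-38 KO tumors were at 23.4, 16.3, 15.8 and 15.3 CPM, and anti-γδTCR tumors at 16.9, 18.3, 10.04 and 18.1 CPM. The means came in the order IL-38 KO (17.7 ± 3.81 CPM), anti-γδTCR (15.8 ± 3.91), WT (12.1 ± 4.03), anti-IL-38 (10.8 ± 3.07) and isotype control (7.60 ± 1.76), each overlapping with the next. Maml2 (ENSMUSG00000031925, chromosome 9, 13297957 to 13709388, plus strand) was between 20.3 and 36.9 CPM, and its group means between 28.6 ± 6.84 CPM (anti-IL-38) and 33.8 ± 2.84 CPM (WT).

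Numb (ENSMUSG00000021224, chromosome 12, 83794034 to 83921934, minus strand) was at 18.6, 9.60, 7.38, 12.6 and 11.7 CPM with isotype control and at 8.47 (lowest), 11.8 (median) and 15.2 CPM (highest) with anti-IL-38. WT tumors were at 14.3, 14.7, 14.7 and 13.1 CPM, the narrowest range of any group. IL-38 KO tumors were at 19.3, 14.97, 12.2 and 44.3 CPM, and anti-γδTCR tumors at 42.7, 47.4, 50.5 and 38.5 CPM. As with Lfng, KO replicate 4 lay inside the range of the anti-γδTCR tumors and far above the other 3 KO tumors.

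The first comparison asked whether neutralizing IL-38 altered these genes. None reached significance: 0 of the 9 had an adjusted p under 0.05 (limma on log2(normalized count + 1), adjusted over 16002 genes), beside 0% of all genes. 1 of the 9, Maml1, had an unadjusted p under 0.05, beside 10.5% of all genes. Normalized counts of Maml1 averaged 140 ± 36.9 (SD, n = 6) with anti-IL-38 and 95.6 ± 21.2 (n = 5) with isotype control, and the log2 fold change was 0.53 (SE 0.23, 95% interval 0.03 to 1.03, limma adjusted p = 0.46), with 4 of 6 treated tumors above every control. Adam10 averaged 1854 ± 307 against 1554 ± 297, which is 0.26 on the log2 scale (interval -0.06 to 0.58, adjusted p = 0.54), and 5 of 6 treated tumors were above the control median. The other 7 genes had log2 fold changes between -0.16 (Lfng) and 0.14 (Rfng), the widest interval being that of Mfng, from -0.60 to 0.69. The median over the 9 genes was 0.02, and over all genes tested 0.00188.

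**Figure D2:**
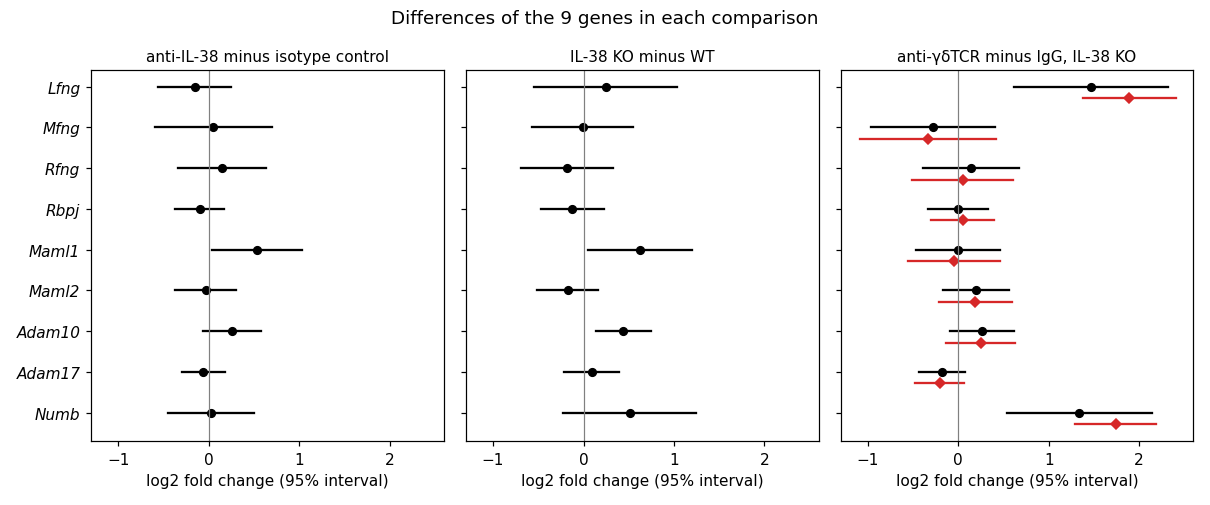
Log2 fold change of each gene with its 95% interval (limma) in the 3 comparisons of 2 groups; black points use every library, red diamonds in the right panel leave out replicate 4 of the IL-38 KO + IgG group. The intervals of Maml1 exclude 0 in the first 2 panels and that of Adam10 in the second, without passing the adjusted threshold, and in the right panel Lfng and Numb lie at 1.47 and 1.34, or 1.89 and 1.74 without that library.

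Comparing genotypes, which asked whether lifelong absence of IL-38 altered the same genes, gave 0 of 9 calls in limma, beside 0.00604% of all genes. 2 of the 9, Adam10 and Maml1, had an unadjusted p under 0.05, beside 12.1% of all genes. These were also the genes for which every IL-38 KO tumor exceeded every WT tumor in normalized counts, as was so for 3.66% of all genes tested. For Maml1 this was narrow and depended on the scaling. Its lowest KO tumor had 186 and its highest WT tumor 184 normalized counts. In CPM, KO replicates 3 and 4 (15.8 and 15.3) were below WT replicate 4 (15.9). Normalized counts of Adam10 averaged 1849 ± 127 in KO and 1373 ± 210 in WT tumors (SD, n = 4 each), and the log2 fold change was 0.44 (SE 0.14, interval 0.14 to 0.74, limma adjusted p = 0.29), and DESeq2 gave an adjusted p of 0.083. Maml1 averaged 210 ± 43.7 against 140 ± 45.6, which is 0.63 on the log2 scale (SE 0.26, interval 0.05 to 1.20, limma adjusted p = 0.37). Two-sided exact permutation tests used log2(normalized count + 1), and 36 were run over the 9 genes and 4 comparisons. On this scale both genes gave an exact permutation p = 0.0286, the smallest that 4 against 4 tumors allow. Without KO replicate 4 the log2 fold changes were 0.46 for Adam10 and 0.68 for Maml1 (limma adjusted p = 0.19 and 0.31).

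Lfng and Numb moved with that library in the comparison of genotypes. Lfng had 127, 210, 177 and 522 normalized counts in the KO tumors, and its log2 fold change was 0.24 (interval -0.54 to 1.03), which turned to -0.16 without replicate 4. Numb had 227, 175, 146 and 539, and its log2 fold change was 0.51 (interval -0.23 to 1.25), which was 0.11 without it. The median over the 9 genes was 0.09, and over all genes 0.00532.

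Pooling both ways of inhibiting IL-38, 10 tumors against 9 controls, gave 0 of 9 calls, beside 0% of all genes, and Adam10 and Maml1 again had an unadjusted p under 0.05, beside 10.5% of all genes. Adam10 was at 1852 ± 241 against 1473 ± 264 normalized counts, or 0.34 on the log2 scale (SE 0.10, interval 0.12 to 0.56, limma adjusted p = 0.30). It was above the pooled control median in 10 of 10 inhibited tumors. Against the control median of its own experiment, it was above in 5 of 6 anti-IL-38 and 4 of 4 IL-38 KO tumors. Maml1 was at 168 ± 52.3 against 116 ± 39.5, a log2 fold change of 0.55 (SE 0.21, interval 0.11 to 0.98, limma adjusted p = 0.39), above the control median in 8 of 10. Without KO replicate 4 these values were 0.35 for Adam10 and 0.52 for Maml1, and that of Numb was 0.03 in place of 0.21. This comparison reuses the tumors of the previous 2, and its fit and medians pool both experiments with no term for the experiment. No difference between the antibody effect and the knockout effect passed for the 9 genes (interaction term in limma, adjusted p from 0.79 to 0.98). Numb (-0.49, antibody minus knockout, log2 scale) and Lfng (-0.40) had the lowest differences, and both turned on KO replicate 4, without which the knockout effect of Numb was 0.11 in place of 0.51 and that of Lfng -0.16 in place of 0.24. Rfng had the highest, 0.32.

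Blocking the γδ T-cell receptor in IL-38 KO mice addressed whether signals through γδ T cells bore on these genes. With every library, limma called 0 of the 9 genes, beside 0% of all genes, and 2, Lfng and Numb, had an unadjusted p under 0.05, beside 21.7% of all genes. On the scale of the separately normalized table of 8 libraries, Lfng had 436, 405, 666 and 435 normalized counts with anti-γδTCR and 95.5, 159, 136 and 409 with IgG. Its log2 fold change was 1.47 (SE 0.38, interval 0.62 to 2.32, limma adjusted p = 0.067), with 3 of 4 treated tumors above every control. Numb had 447, 465, 574 and 373 normalized counts against 171, 132, 113 and 422, or 1.34 on the log2 scale (SE 0.36, interval 0.54 to 2.14, limma adjusted p = 0.069), again with 3 of 4 above every control. Both gave p = 0.0571 in the exact permutation test. edgeR gave adjusted p-values of 0.16 for Lfng and 0.17 for Numb, whereas DESeq2 called both higher (adjusted p = 0.030 and 0.044), beside 2.58% of all genes called higher by DESeq2.

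Without replicate 4 of the IL-38 KO + IgG group, both genes passed. Lfng then had 130 ± 32.2 normalized counts (SD, n = 3) with IgG against 485 ± 121 (n = 4), and its log2 fold change was 1.89 (SE 0.23, limma adjusted p = 1.9e-04). Numb had 139 ± 29.5 against 465 ± 82.8, a log2 fold change of 1.74 (SE 0.20, limma adjusted p = 1.3e-04). In that fit 9.45% of all genes were called higher and 14.3% in either direction. edgeR without that library gave adjusted p-values of 2.5e-04 for Lfng and 1.4e-04 for Numb. The KO tumor left out lay inside the range of the anti-γδTCR tumors for both genes.

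**Figure D3:**
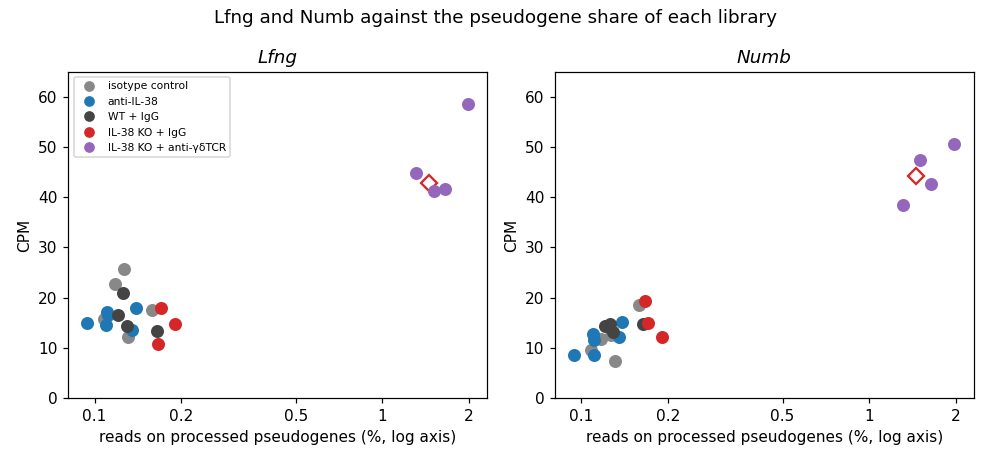
Level of Lfng and Numb (CPM, linear axis) against the share of reads on processed pseudogenes (percent, log axis) in the 23 libraries, colored by group; the open diamond is replicate 4 of the IL-38 KO + IgG group. The 5 libraries with shares of 1.31% to 1.98% hold 41.3 to 58.7 CPM of Lfng and 38.5 to 50.5 CPM of Numb, and the other 18 hold at most 25.6 and 19.3 CPM.

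Set by library rather than by treatment, the 5 libraries held 41.3 to 58.7 CPM of Lfng against 10.8 to 25.6 in the other 18, and 38.5 to 50.5 CPM of Numb against 7.38 to 19.3. No library of one set reached into the other. The median was 2.67 times higher for Lfng and 3.49 times higher for Numb. These were 2 of the 9 genes, and 4.01% of all 16352 genes lay wholly higher in the 5 libraries in this way. In the comparison with anti-γδTCR without KO replicate 4, 4 of 6 tested B and plasma cell markers were called higher (median log2 fold change 1.33), 5 of 9 macrophage markers lower (-1.25), 1 of 5 neutrophil markers lower (-0.92) and 1 of 8 dendritic cell markers lower (-0.04). Also called were 2 of 11 cell cycle markers, lower (-0.68), and 1 of 10 luminal markers, higher (0.23), and none in the other marker lists. Of all genes in that fit, 9.45% were called higher and 800 of 16480 lower. The part that the features of these libraries, or the cell type markers that differ in them, have in the levels of Lfng and Numb was not tested.

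The other 7 genes showed smaller differences in the γδ TCR comparison. Adam17 had 1356, 1297, 1355 and 1378 normalized counts with anti-γδTCR and 1435, 1626, 1608 and 1419 with IgG, so every treated tumor was below every control, as was so for 4.98% of all genes. Its log2 fold change was -0.17 (interval -0.43 to 0.08, limma adjusted p = 0.42), and the exact permutation test gave p = 0.0286. Without KO replicate 4 it was -0.21 (limma adjusted p = 0.33). Adam10 had a log2 fold change of 0.26 (interval -0.09 to 0.62). Mfng (-0.28), Rfng (0.14), Rbpj (-0.0051), Maml1 (-0.0022) and Maml2 (0.20) all had intervals that included 0. With the reads of Rbpj-ps3 added to Rbpj, the mean was 495 ± 55.0 against 429 ± 72.0 normalized counts, a log2 difference of 0.22 (exact permutation test, p = 0.20). The median over the 9 genes was 0.14, and over all genes 0.02.

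Ratios of related genes within a library do not depend on the scaling between libraries, and 3 of them were tested in 3 comparisons each by two-sided exact permutation of log2(reads + 0.5). The ratio of Maml1 to Maml2 was 0.37 (geometric mean, 0.27 to 0.51) with anti-IL-38 and 0.25 (0.16 to 0.32) with isotype control, a log2 difference of 0.57 (exact p = 0.0195). It was 0.59 (0.54 to 0.65) in IL-38 KO and 0.34 (0.21 to 0.51) in WT tumors, a log2 difference of 0.80 (exact p = 0.0286), with all KO tumors above all WT tumors. Adjusted over the 9 ratio comparisons, both exact tests gave p = 0.13. The first became 0.41 without isotype control replicate 2 (exact p = 0.0524), and the second gave an exact p of 0.0571 without any 1 of the KO tumors. No tumor is shared between these comparisons. With anti-γδTCR the ratio was 0.52 against 0.59 (log2 difference -0.20, or -0.23 without KO replicate 4, exact p = 0.31 for both).

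The ratio of Adam17 to Adam10 was 1.07 against 1.33 with the antibody (log2 difference -0.32, exact p = 0.0996) and 1.07 against 1.37 with the knockout (-0.35, p = 0.0857), and at 0.79 against 1.07 with anti-γδTCR (-0.44, p = 0.0857, or -0.45, p = 0.11, without KO replicate 4), none of which passed 0.05. The last of these shares its control tumors with the knockout comparison. Lfng to Mfng was 14.8 with anti-γδTCR and 4.41 with IgG in IL-38 KO tumors, a log2 difference of 1.75 (exact p = 0.0571), or 2.22 without KO replicate 4 (exact p = 0.0286). It differed by -0.21 (exact p = 0.55) between anti-IL-38 and isotype control and by 0.25 (p = 0.80) between KO and WT.

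**Figure D4:**
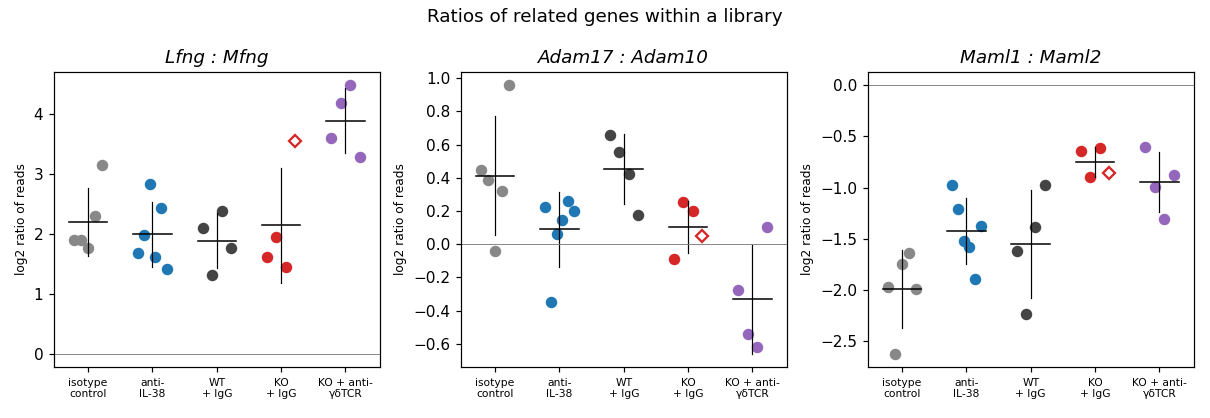
Log2 ratio of reads of 3 gene pairs in each library, by group, with a line at the mean and a bar of 1 SD; the open diamond is replicate 4 of the IL-38 KO + IgG group, and 0 marks equal reads. The ratio of Maml1 to Maml2 lies at -0.89 to -0.61 in the IL-38 KO tumors and at -2.24 to -0.98 in WT, and that of Lfng to Mfng is highest, at 3.29 to 4.48, in the anti-γδTCR tumors.

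Around the 9 genes, 93 other pathway genes were listed in 9 groups, of which 91 were in the tables. With anti-IL-38 86 of them were tested and 0 passed in limma, 53 having a log2 fold change above 0, with a median of 0.08 beside 0.00188 for all genes. The 3 with the smallest p were ligands. Dll1 was at 156 ± 46.6 against 63.6 ± 23.7 normalized counts (log2 fold change 1.32, limma adjusted p = 0.33), Jag1 at 351 ± 171 against 186 ± 52.5 (0.85, adjusted p = 0.41) and Dll4 at 58.0 ± 16.5 against 33.7 ± 15.3 (0.81, adjusted p = 0.43). Of the 86, 8 were higher and 3 lower at an unadjusted p under 0.05, beside 10.5% of all genes. By group these were 3 of 5 ligands, 3 of 11 partners of Adam10 and Adam17 (tetraspanins, iRhoms, tissue inhibitors and activating proteases), 1 of 21 genes of trafficking and turnover and 1 of 13 targets, all higher, and 1 of 6 other glycosylation enzymes, 1 of 7 γ-secretase genes and 1 of 13 corepressors, all lower, with 0 of 4 receptors and 0 of 8 other coactivators.

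Between KO and WT 85 of the listed genes were tested and 0 passed, with a median of 0.08. The smallest p belonged to the Notch target Myc (169 ± 46.0 against 56.1 ± 10.8 normalized counts, log2 fold change 1.56, limma adjusted p = 0.10). The ubiquitin ligase gene Dtx3l had a log2 fold change of -0.74 (adjusted p = 0.21) and the deacetylase gene Hdac1, part of corepressor complexes, one of -0.86 (adjusted p = 0.21). In the pooled comparison 0 of 86 passed, and the smallest p were those of Dll1 (log2 fold change 1.19, adjusted p = 0.073), Hes1 (0.50, adjusted p = 0.27) and Dll4 (0.71, adjusted p = 0.31).

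With anti-γδTCR 0 of 86 listed genes passed when every library was used, with a median of 0.11. The 3 with the smallest p, each with a limma adjusted p of 0.066, were Furin (log2 fold change 0.75), Mib1 (-0.61) and Myc (-1.39). Without KO replicate 4, 12 of 85 passed, beside 14.3% of all genes, 6 higher and 6 lower. Higher were Furin (0.86), the convertase that activates Adam10 and Adam17, the adaptor gene Ap2a1 (1.33), the ubiquitin ligase gene Fbxw7 (0.63), which marks the Notch intracellular domain for degradation, Fhl1 (1.49), Hdac2 (0.59) and the Notch target Hey1 (0.67). Lower were the γ-secretase genes Aph1c (-1.89) and Psen2 (-0.70), the ubiquitin ligase genes Mib1 (-0.61) and Neurl3 (-1.65), the demethylase gene Kdm1a (-0.60) and Myc (-1.45).

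Several of these also lay wholly apart between the 5 libraries and the other 18. They were chosen by comparing anti-γδTCR libraries, all among the 5, with IgG libraries of the other 18, so the choice itself favors such separation. Of all 16352 genes, 655 lay wholly higher in the 5 libraries and 940 wholly lower. Aph1c was at 3.75 to 11.8 CPM in the 5 libraries that stood apart and at 28.8 to 65.5 CPM in the other 18, and has a near-identical copy, Aph1b, with which it may share reads. Psen2 was at 22.5 to 32.9 against 47.3 to 88.2 CPM, and Neurl3 at 2.87 to 9.34 against 18.6 to 43.4 CPM. Ap2a1 was at 19.4 to 33.8 against 7.77 to 17.6 CPM. Fhl1 (6.61 to 14.6 against 0.634 to 6.49 CPM) and Hdac2 (75.6 to 104 against 35.2 to 72.1 CPM) did not overlap either, while Furin, Fbxw7, Mib1, Myc, Hey1 and Kdm1a did. The part of the libraries' features in these differences was not tested.

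Over the 19 libraries of the larger table, with the mean of each group taken out, the 36 pairs among the 9 genes had correlations of log2 values from -0.49 (Rfng and Rbpj) to 0.64 (Lfng and Numb, Spearman 0.44), and that of Lfng and Numb was 0.14 without KO replicate 4. Maml2 and Numb were at 0.40, or 0.68 without it. For each gene, the most similar of the 16351 other genes were named by Pearson's r. Adam10 was followed by Tspan13 (r = 0.90, Spearman 0.89), Slc30a7 (0.90) and Enpp3 (0.88), and Rfng by Sox12 (0.91, Spearman 0.88), G6pc3 (0.88) and Tapbp (0.87). Maml1 was followed by Mfsd4b4 (0.89), Clcn2 (0.86) and Trmt1l (0.85), Rbpj by Snx4 (0.85), Sap30 (0.82) and Smpd4 (0.79), and Adam17 by Map3k9 (0.85), Dctd (0.83) and Usp24 (0.77).

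Mfng was followed by Zfp984 (0.81), Smyd1 (0.80) and Inmt (0.80), and Maml2 by Tmcc3 (0.78), Gm37349 (0.76) and Gm11940 (0.76). For Lfng they were Timm10 (0.87), Ppm1g (0.86) and Gm22567 (0.85), which were 0.66, 0.59 and 0.57 without KO replicate 4. For Numb they were Col4a3bp (0.90), Qk (0.88) and Mzb1 (0.87), which were 0.76, 0.72 and 0.75. Mzb1 is one of the 9 B and plasma cell markers, whose summed level was 615 CPM in KO replicate 4, 33.8 to 62.2 CPM in the other 3 KO tumors and 64.1 to 216 CPM with anti-γδTCR, and whose part in the level of Numb was not tested. Without the 2 libraries farthest from the median of each gene, these 27 correlations were 0.50 to 0.85. The libraries share their scaling, and the highest of so many correlations are high by selection, so they are descriptions.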

How the data were processed

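The authors used a BlueBee Genomics pipeline made for QuantSeq, and the submitters' processing notes name STAR, HTSeq, DESeq2 and the build GRCm39. The authors deposited a signal, the reads of a gene over the library's size factor, here called normalized counts, in a table of 19 libraries and a table of 8, normalized separately, with 4 libraries in both. Every value was a whole multiple of the value of 1 read within 0.0001%, so the reads could be recovered (for WT replicate 1, whole reads and rounding look alike). CPM from these reads set levels across all 23 libraries, and tests stayed within a table. Of 47643 identifiers, 47224 had a symbol in GENCODE M21, whose coordinates are on GRCm38, not on the authors' build.

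The genes, the gene lists and the tests were chosen with earlier results of these data known. Genes whose normalized counts averaged 5 or more were tested on log2(normalized count + 1), a scale that understates changes of low genes, by two-sided limma 3.58.1 with a mean-variance trend (R 4.3.3; Benjamini-Hochberg over all genes tested, threshold 0.05), using the libraries of the comparison. The difference of the antibody and knockout effects was an interaction term over 19 libraries. Exact permutation tests used the mean of log2 values. Alternatives were pseudocounts of 0.5 and 5, no filter or a mean of at least 20, TMM, quantile normalization, edgeR 4.0.16, DESeq2 1.42.0, a term for the replicate number or for the experiment, and omission of single libraries. The fits were tested on simulated data. All 9 genes are named, with listed pathway genes past the threshold or else the 3 with the smallest p, and the 3 genes most like each member. Nothing says that the tumors of a group came from separate cages or days, so p-values measure the spread between these tumors. Counts of same-group libraries all differed beyond sampling noise (43 pairs, chi-square per degree of freedom 15.9 to 125). Wilson intervals cover counting error only.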

Additional observations from a re-analysis of the deposited data

Results flagged for a closer look

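A tumor far from the others of its group was looked for in the 9 genes and 5 groups, 45 sets of 4 to 6 tumors, where chance marks about 1 in 20. There were 5. Lfng was at 666 normalized counts in anti-γδTCR replicate 3 against 405 to 436 in the other 3 tumors, the library with the fewest reads (6273049) and the highest share of Gm42418 (20.1%). The column header of that library, unlike all others, carries the mark rep, whose meaning is not given. Rbpj was at 775 in anti-IL-38 replicate 6 against 535 to 597. Maml1 gave the other 3, with isotype control replicate 2 at 58.8 against 98.0 to 112, IL-38 KO replicate 1 at 276 against 186 to 190, and anti-γδTCR replicate 3 at 114 against 175 to 180. The high level of Lfng and Numb in IL-38 KO replicate 4 fell short of the limit used, since the other 3 tumors of that group also differed. For the 9 genes no interaction of antibody and genotype effects passed.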

How the results depend on the processing

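In the fits run, 0 of the 9 genes were called in the anti-IL-38, genotype or pooled comparison, or for the difference of the antibody and knockout effects, under the alternatives. With anti-γδTCR the calls were 2 of 9, Lfng and Numb, in DESeq2, without IL-38 KO replicate 4, and without it in edgeR, DESeq2 or TMM rescaling (chosen after seeing the data), and 0 to 2 over the libraries left out, 2 being without KO replicate 4; the cause was not tested. Genes called of all tested moved from 0 to 75 (DESeq2) and 1 (replicate block) with anti-IL-38, from 1 to 0 (edgeR, replicate block) and 305 (DESeq2) between genotypes, from 0 to 1036 (DESeq2) with anti-γδTCR, and there without KO replicate 4 to 2357, 2379 (edgeR), 2873 (DESeq2) and 2387 (TMM). In the pooled comparison they moved from 0 to 1 (edgeR, experiment as a term) and 70 (DESeq2), and for the difference of effects from 1 to 0 (edgeR) and 22 (DESeq2). Leaving out a library gave 0 to 6 with anti-IL-38 (6 without isotype control replicate 3), 0 to 7 between genotypes (7 without WT replicate 3 or KO replicate 4), 0 to 2357 with anti-γδTCR and 0 to 23 pooled (23 without isotype control replicate 3).

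Of 793 log2 fold changes refitted for the members, 714 kept direction and side of the threshold, and 10 newly passed, all of Lfng or Numb. Those that changed sign had main values of at most 0.24 in size. With anti-IL-38 these were Mfng at -0.0678 (quantile normalization) and -0.0870 (replicate block) and Numb at -0.0360 (quantile). Between genotypes Mfng was at 0.0079 (edgeR) and 0.0076 (DESeq2). With anti-γδTCR Maml1 was at 0.000901 (quantile) and 0.011 (DESeq2), Rbpj at 0.22 (reads of Rbpj-ps3 added), and without KO replicate 4 Rfng at -0.0330 (edgeR) and -0.0048 (TMM) and Rbpj at 0.013 (edgeR) and 0.051 (DESeq2). In the pooled comparison Lfng was at -0.016 (TMM) and -0.023 (quantile), Mfng at -0.0071 (TMM), -0.0688 (quantile) and -0.0526 (replicate block), Rfng at -0.022 (TMM), -0.027 (quantile) and -0.0018 (edgeR), and Adam17 at -0.027 (TMM) and -0.0089 (quantile).

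Leaving out single libraries, the anti-IL-38 values ran from -0.10 to 0.20 (Mfng), -0.10 to 0.27 (Rfng), -0.0998 to 0.0304 (Maml2) and -0.12 to 0.19 (Numb), and the genotype values from -0.16 to 0.51 (Lfng) and -0.13 to 0.11 (Mfng). With anti-γδTCR they ran from -0.0015 to 0.35 (Rfng), -0.0964 to 0.0539 (Rbpj) and -0.0618 to 0.16 (Maml1). Pooled they ran from -0.13 to 0.10 (Lfng), -0.0526 to 0.11 (Mfng), -0.11 to 0.0749 (Rfng) and -0.0320 to 0.0334 (Adam17). The log2 ratio of Lfng to Mfng ran from -0.38 to 0.0293 with anti-IL-38, -0.22 to 0.49 between genotypes and 1.51 to 2.22 with anti-γδTCR. Adam17 to Adam10 ran from -0.44 to -0.19, -0.44 to -0.28 and -0.58 to -0.34, passing 0.05 without isotype control replicate 3 (p = 0.0048, exact), WT replicate 4 or anti-γδTCR replicate 4 (p = 0.0286 each). Maml1 to Maml2 ran from 0.41 to 0.66 with anti-IL-38, where it missed 0.05 without isotype control replicate 2 (exact permutation p = 0.0524), and from 0.57 to 1.00 between genotypes, where it missed 0.05 without any 1 KO tumor (p = 0.0571 each).

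Same-numbered samples correlated at -0.17 to 0.07 and differently numbered ones at -0.24 to 0.21. These few correlations gave no sign of pairing by number but cannot exclude it. The replicate block called 0 of the 9 genes. Mfng, at 16 to 86 reads, is the member most limited by depth.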
